A study of Rattus norvegicus with 30 samples.

Results

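The comparison asked whether each gene changed by the same amount in the injured sciatic nerve (SN) and in the dorsal root ganglia (DRG) that hold the cell bodies of its sensory axons, 14 d after the nerve was resected. For every non-control probe the change in SN (14d_SN minus 0d_SN) was set against the change in DRG (14d_DRG minus 0d_DRG), and the difference between both changes was tested. The members are 12 of the 30 arrays of the series, 3 each of 0d_SN, 14d_SN, 0d_DRG and 14d_DRG. All samples came from adult male Sprague-Dawley rats whose left sciatic nerve lost a 1 cm segment just above its division into the tibial and common peroneal branches, and the 0 d groups served as the controls of their tissue. L4-6 DRG and a 0.5 cm piece of the proximal nerve were taken as whole tissue, and total RNA was labelled with Cy3 and hybridized to one-colour Agilent rat arrays. The study's text calls the nerve samples of a time point biological replicates, while the labels describe 5 groups of 6 rats and do not say which rats an array holds, for SN or DRG. The p-values measure the spread between these arrays. In such bulk samples fewer cells of a type and less RNA per cell cannot be told apart.

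A peripheral nerve holds axons, Schwann cells, fibroblasts, vessels and immune cells, but the neuronal cell bodies lie in the DRG and the spinal cord. After axotomy, injured sensory neurons switch to a growth program with transcription factors such as Atf3 and peptides such as galanin. In the nerve itself, Schwann cells leave the myelinating state, divide and take up repair functions, and blood-borne macrophages and lymphocytes enter the tissue.

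The labelled tissues were checked against their markers. At 0 d the mean normalized signal over 17 pan-neuronal genes lay between 3.79 and 3.86 on the DRG arrays and between -3.35 and -2.98 on the SN arrays, and that over 21 peripheral myelin genes lay between 1.86 and 2.25 in DRG and between 3.61 and 3.85 in SN. Normalized signal is the log2 processed intensity of a probe minus the 75th percentile of its array, and levels are compared only within a probe. Arrays of a group correlated at 0.985 to 0.994 over the 34619 probes tested. Skeletal muscle markers were uneven, with mean signals of 2.30 to 7.04 on the 0d_SN arrays and 1.29 to 4.30 on the 0d_DRG arrays, so muscle genes are named with that spread beside them. All 0 d arrays shared 1 scan day and all 14 d arrays another, so that within a tissue day and scan cannot be told apart, whereas the difference between tissues lies within scan days. Both tissues shared a slide at each day, 0d_SN replicates 1 to 3 with 0d_DRG replicate 1 and 14d_SN replicate 3 with 14d_DRG replicates 1 to 3.

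At 14 d, 4562 of 34619 probes (13.2%) changed by different amounts in the tissues, 1889 (5.46%) with a change higher in SN and 2673 (7.72%) with a change lower in SN. A call needed both a limma p under 0.05 after Benjamini-Hochberg adjustment and a size over 2-fold, and 11267 probes (32.5%) passed on the adjusted p alone. Within SN 6762 probes (19.5%) were called, 4756 (13.7%) higher and 2006 (5.79%) lower than at 0 d. Within DRG 4816 probes (13.9%) were called, 4627 (13.4%) higher and 189 (0.546%) lower. These splits rest on the scaling between arrays and, for DRG, on the filter for signal above background. Without that filter DRG had 4785 higher and 1737 lower of 41012 probes. After quantile normalization SN had 2623 higher and 2511 lower probes and DRG had 2637 higher and 849 lower, and the difference had 1962 higher and 2318 lower. The excess of lower differences was not stable, with 2166 higher and 2248 lower when the percentile was taken over probes well above background, 1931 and 1919 with slide as a fixed block and 1183 and 1103 on the 8 arrays of the slides that hold both tissues. With the normexp correction and quantile normalization SN had 1052 higher and 1208 lower probes. Under quantile normalization alone, the median change over all tested probes moved from 0.14 to 0.02 in SN and from 0.13 to -0.04 in DRG. For the difference it moved from -0.10 to 0.00.

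With 1 probe for each of 15733 genes, 2225 genes (14.1%) had a called difference, 988 (6.28%) higher in SN and 1237 (7.86%) lower. In SN 3335 genes (21.2%) were called, 14.7% higher and 6.55% lower, and in DRG 2140 genes (13.6%), 13.0% higher and 0.572% lower. The 3 arrays of 14 d lay wholly beyond the 3 of 0 d for 61.3% of genes in SN and 51.4% in DRG, so a lack of overlap alone is common here. Genes were then sorted by their calls. A nerve-only gene was called in SN, not called in DRG and called for the difference, which held for 1381 genes, 696 (4.42%) up and 685 (4.35%) down. A ganglion-only gene met the mirrored rule, which held for 303 genes, 279 (1.77%) up and 24 (0.153%) down. Both tissues were called in the same direction for 1095 genes, 1067 (6.78%) up and 28 (0.178%) down, and in opposite directions for 43 genes, 16 (0.102%) up in SN and 27 (0.172%) up in DRG. A further 408 genes (2.59%) were called for the difference but in neither tissue alone. Of the rest, 816 genes (5.19%) were called in SN alone and 699 (4.44%) in DRG alone without a called difference, so they were put in no class, and 10988 (69.8%) had no call. Among the nerve-only genes 1091 had a 95% interval of the DRG change inside 2-fold, and among the ganglion-only genes 160 had such an interval of the SN change. The change in SN and the change in DRG correlated at r = 0.47 across genes, which are not independent replicates.

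The classes differed in how well their members were measured. Of the nerve-only genes 417 of 696 up and 576 of 685 down were well above background on all 12 arrays, against 86 of 279 ganglion-only up genes and 322 of 1067 same-direction up genes. The count of same-direction genes was 552 after quantile normalization and 109 with a normexp background correction, with 441 and 92 of the 1067 up genes still in the class. The count of ganglion-only genes was 555 without 14d_SN replicate 3, and 178 with slide as a fixed block in the test of the difference.

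**Figure D1:**
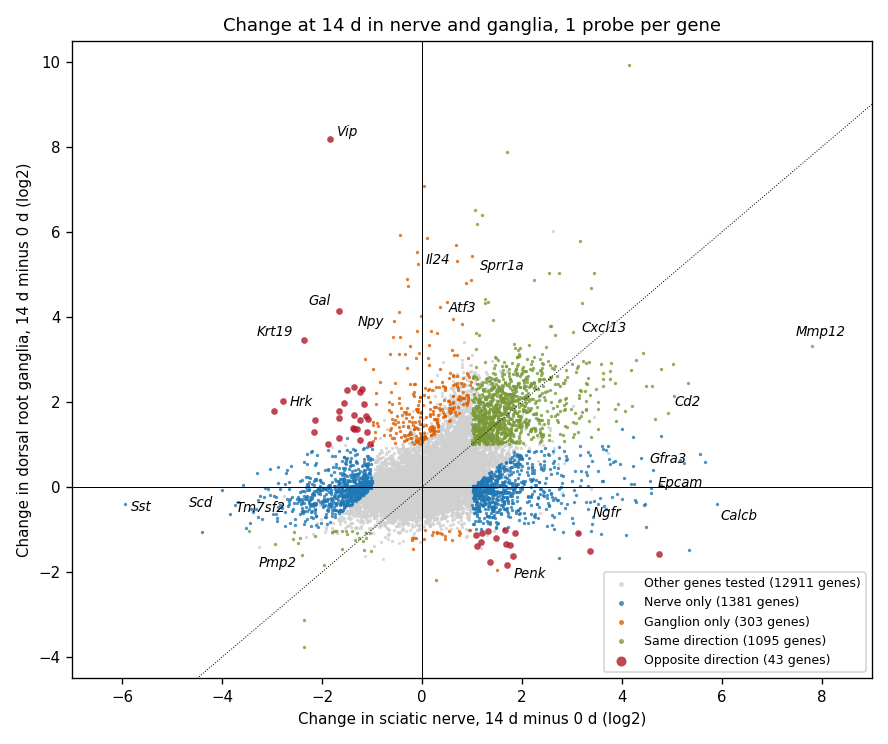
Change in SN (x axis, log2) against change in DRG (y axis, log2) at 14 d for 15733 genes, coloured by class, with the dotted line where both changes are equal. Nerve-only genes lie along the x axis on both sides, ganglion-only genes lie mostly above 0 on the y axis, and Vip, Gal, Krt19 and Hrk stand in the upper left, up in DRG and down in SN.

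Opposite-direction genes were led by neuropeptides. Vip, which encodes vasoactive intestinal peptide, had the largest difference of the 15733 genes. Its normalized signal in DRG was -2.97, -4.05 and -3.07 at 0 d and 4.92, 4.75 and 4.78 at 14 d. In SN the same probe read -0.60, -1.72 and -0.32 at 0 d and -2.81, -2.85 and -2.5 at 14 d. No array of one day reached into the range of the other in either tissue. The change was 8.18 in DRG (290-fold) and -1.84 in SN, a difference of -10.02 ± 0.43 (SE, with an adjusted p of 1.71e-13). Gal, which encodes galanin, stood at 3.20, 3.11 and 3.13 in 0 d DRG and at 7.37, 7.27 and 7.21 in 14 d DRG. In SN Gal went from 2.32, 2.38 and 2.81 to 0.63, 0.93 and 0.92, so that the tissues, close at 0 d, were far apart at 14 d. The difference was -5.81 ± 0.18 (adjusted p = 1.81e-15).

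Krt19, an intermediate filament of epithelial-type cells that was also held in the list of perineurial and fibroblast markers, fell in SN from 1.17, 1.37 and 1.06 to -1.52, -0.60 and -1.39. In DRG it rose from -3.68, -3.11 and -2.56 to 0.23, 0.26 and 0.56. At 0 d every SN array was above every DRG array, and at 14 d the order was turned. The difference was -5.83 ± 0.34 (adjusted p = 2.82e-11). Hrk, a BH3-only regulator of apoptosis, changed by -2.78 in SN and 2.02 in DRG, and Padi3, a peptidylarginine deiminase, by -1.5 and 2.28.

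In the other direction, Penk, which encodes the enkephalin precursor, rose in SN from -1.56, -1.63 and -2.40 to 0.20, -0.84 and 0.15. In DRG Penk fell from -1.24, -0.99 and -0.83 to -2.68, -2.80 and -3.10, a difference of 3.54 ± 0.37 (adjusted p = 1.52e-07). A second Penk probe gave a difference of -0.37, which was not called, so the gene rests on 1 probe. Pappa, a metalloproteinase that cleaves insulin-like growth factor binding proteins, changed by 1.87 in SN and -1.07 in DRG. Pla2g7, the secreted platelet-activating factor acetylhydrolase, changed by 1.31 and -1.04, and Tmem255a by 1.19 and -1.29. All 9 differences of the genes named here were also called with slide as a fixed block, a fit added after seeing the data, where they ranged from -9.40 for Vip to 3.63 for Penk. Of the 43 genes, 19 were well above background on all 12 arrays, and after quantile normalization 29 of them were still in their class among 67 opposite-direction genes, 39 of those up in SN. Vsig4 counts among the 16 up in SN, but its DRG signal was not well above background on any array.

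**Figure D2:**
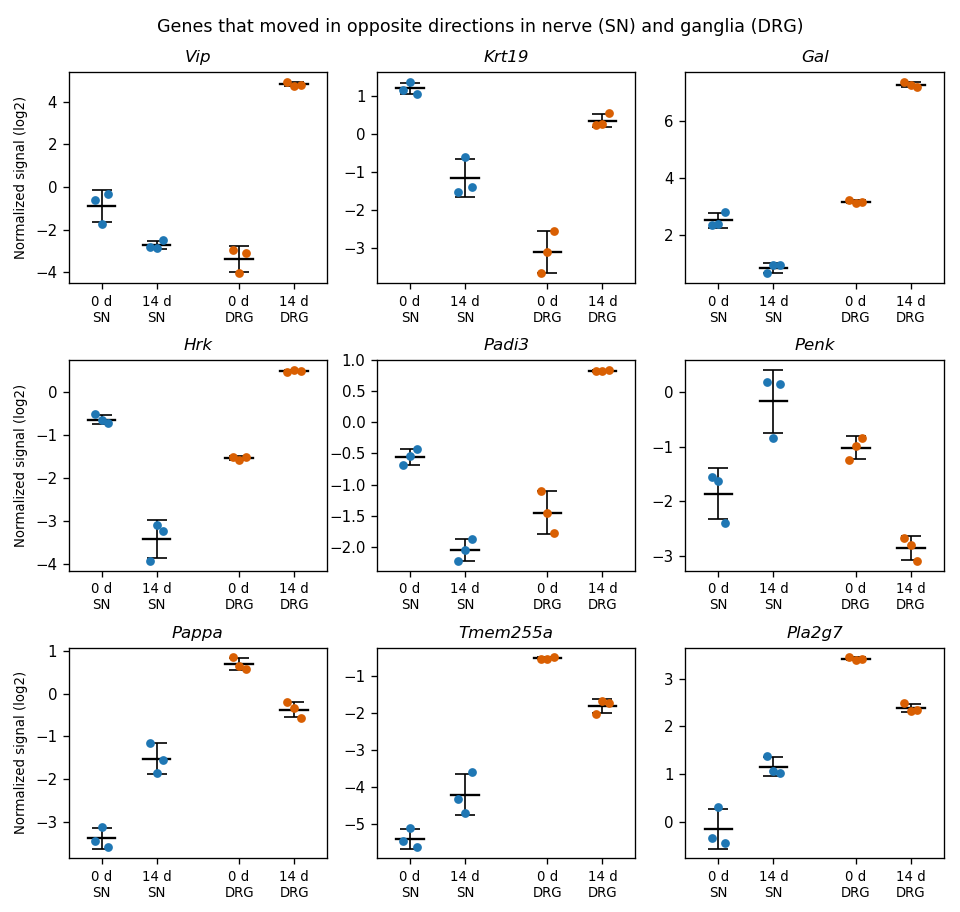
Normalized signal (log2, y axis) of the 9 named opposite-direction genes on each of the 12 arrays, SN in blue and DRG in orange, with bars for the mean and SD of 3 arrays. In every panel the arrays of 14 d lie apart from those of 0 d in both tissues and in opposite directions, as in Gal with 0.63 to 0.93 in SN and 7.21 to 7.37 in DRG at 14 d.

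The neuropeptide list as a whole was split between the tissues. Of 16 members tested, 4 had a change higher in SN and 7 a change lower in SN, against 6.28% and 7.86% of all genes. The same shares are the background for the counts of every list below. For counts of members that rose or fell within a tissue, the shares over all genes are 14.7% higher and 6.55% lower in SN. In DRG they are 13.0% higher and 0.572% lower. Calcb, which encodes beta-CGRP, had the largest difference of the nerve-only up genes well above background on all 12 arrays. In SN its signal was -5.89, -5.78 and -4.57 at 0 d and 0.78, 0.13 and 0.55 at 14 d, a 59.6-fold rise. In DRG it was 5.11, 5.18 and 5.14 at 0 d and 4.82, 4.68 and 4.74 at 14 d, so that SN stayed below DRG on every array. The difference was 6.29 ± 0.31 (adjusted p = 1.74e-12). Calca, which encodes alpha-CGRP, changed by 0.00 in SN and -0.35 in DRG, and neither was called, although 1 of its 3 probes gave a called difference of 1.12. Tac1, the substance P precursor, rose by 1.34 in SN with -0.69 in DRG.

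Sst, the somatostatin precursor, went the other way in SN. Its signals were -2.55, -3.87 and -2.14 at 0 d and not well above background on any array at 14 d, at least 16.6-fold lower. Here and below, such a bound sets the brighter day's mean against the lowest signal well above background on each array of the dimmer day, or the probe's own where that is higher. The DRG levels of Sst were 4.86, 4.80 and 4.63 at 0 d and 4.36, 4.37 and 4.34 at 14 d. Npy, neuropeptide Y, rose in DRG from 2.25, 4.20 and 3.36 to 7.31, 7.14 and 7.05 and read 2.53, 2.96 and 1.21 at 0 d and 1.42, 2.15 and 1.47 at 14 d in SN, where the days overlapped. Ucn, urocortin, rose in both tissues, by 1.07 in SN and 6.51 in DRG, and Cck, cholecystokinin, by 2.17 in DRG with 0.04 in SN.

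Ganglion-only up genes also held cytokines and growth-associated genes. Il24, a cytokine of the interleukin-10 family, read -4.46, -4.38 and -4.10 in 0 d DRG and 1.07, 0.77 and 0.95 at 14 d. All 6 SN arrays of Il24 lay between -5.04 and -4.76, with no separation of the days. Sprr1a, a small proline-rich protein linked to axon outgrowth, rose in DRG from -5.21, -4.80 and -4.88 to 0.12, 0.58 and 0.70. Its SN arrays went from -4.61, -4.74 and -4.89 to -3.99, -4.01 and -3.25, a change of 1.00. That rise had an adjusted p of 0.000492 and was not called only because it did not pass 2-fold. Ptprh, a receptor-type tyrosine phosphatase, changed by 5.69 in DRG and 0.68 in SN, and Hamp, the iron-regulating hormone hepcidin, by 5.32 and 0.71.

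Of 24 growth-associated genes tested, 10 had a change lower in SN and 3 a change higher in SN, against 7.86% and 6.28% of all genes. Arg1, arginase, rose by 3.95 in DRG with 0.61 in SN, Gadd45a by 2.18 with -0.18 and Gap43 by 1.32 with 0.25. Ecel1, an endopeptidase of injured neurons, rose in both tissues, by 4.34 in DRG and 1.32 in SN. Tubb3 and Stmn2, neuronal cytoskeletal genes, fell by 1.45 and 1.72 in SN, with 0.58 and 0.46 in DRG, which were not called. The 3 members with a higher change in SN were Basp1, Dpysl3 and Tnfrsf12a, which rose there by 1.78, 1.09 and 1.76.

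Among the injury transcription factors, Atf3 separated the tissues most. In DRG it went from 1.4, 1.63 and 1.67 to 5.90, 5.74 and 5.74. In SN it was above the 0 d DRG level from the start, with 2.99, 3.20 and 3.40 at 0 d and 3.52, 3.57 and 3.56 at 14 d. The difference was -3.87 ± 0.16 (adjusted p = 1.31e-13). Of 20 members 3 had a called difference, against 14.1% of all genes, the others being Atf5, which fell by 1.42 in SN with 0.51 in DRG, and Fos, which rose by 1.96 in SN with 0.67 in DRG. The difference of Fos was 1.29 (adjusted p = 0.0468) and was not called in 15 of 25 alternatives, where it lay between 0.82 and 1.79. Jun, the core AP-1 subunit, rose in both, by 1.03 in SN and 1.60 in DRG.

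The Sprr1a promoter was printed because Atf3 and Jun belong to the family of factors that bind AP-1 sites. It is the 250 bases before the gene's start in RefSeq (build GRCr8, chr2:180752626-180752875, minus strand, 5' to 3'), and capitals mark both matches to TGANTCA. 
Sprr1a: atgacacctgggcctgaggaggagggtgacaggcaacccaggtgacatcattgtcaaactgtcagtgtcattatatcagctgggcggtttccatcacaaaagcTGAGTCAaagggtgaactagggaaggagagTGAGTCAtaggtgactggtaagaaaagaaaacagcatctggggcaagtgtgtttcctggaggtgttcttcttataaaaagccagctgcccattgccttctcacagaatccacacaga
The letters TGANTCA, searched on both strands, stood in 19 of 191 promoters of ganglion-only up genes (9.95%), 70 of 764 of same-direction up genes (9.16%), 21 of 507 of nerve-only up genes (4.14%) and 591 of 11679 of all genes tested (5.06%). Smaller classes had higher shares, also where genes fell in DRG. These were 3 of 17 for ganglion-only down genes (17.6%), and 3 of 11 (27.3%) and 3 of 20 (15.0%) for opposite-direction genes up in SN and up in DRG. In the growth-associated list that holds Sprr1a, 1 of 17 promoters had the letters (5.88%). These shares are a description of letters in a window and no test of binding.

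Kcna3, a potassium channel subunit with a second probe that gave a difference of -0.06, read -2.38, -2.12 and -2.21 in 0 d DRG and -3.09, -3.05 and -3.59 at 14 d, a change of -1.01 with 0.94 in SN. Lgi3, a secreted leucine-rich repeat protein, changed by -1.02 in DRG and 0.97 in SN, and the heparan sulfate-cleaving enzyme Hpse by -1.09 and 0.76. The other 2 named members were Lhfpl1 with -1.12 and 0.75 and Pcdh7, a protocadherin, with -1.04 and 0.74. These are 5 of 24 ganglion-only down genes, and their DRG changes lay just past 2-fold and their SN values just short of it in the opposite direction. The SN rises had adjusted p from 3.79e-05 (Lhfpl1) to 0.00843 (Pcdh7), so the class name does not mean that SN was unchanged.

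Cholesterol synthesis was the list with the most uniform difference. Of 25 members, 22 fell in SN and none was called in DRG, and 23 had a change lower in SN. The median change was -1.71 in SN and -0.07 in DRG, against 0.11 and 0.06 over all genes. Tm7sf2, a sterol reductase, went in SN from 5.50, 5.82 and 5.89 to 2.97, 3.26 and 3.18. Its DRG arrays read 4.65, 4.68 and 4.54 at 0 d and 4.47, 4.31 and 4.37 at 14 d, so that SN stood above DRG at 0 d and below it at 14 d. The same turn in order was seen in Hmgcs1, the synthase that feeds the mevalonate pathway, with 7.12, 7.51 and 7.61 against 6.06, 6.24 and 6.02 at 0 d and 4.87, 5.14 and 5.15 against 6.19, 5.89 and 5.93 at 14 d. The difference was -2.36 ± 0.16 for Tm7sf2 (adjusted p = 2.39e-10) and -2.25 ± 0.18 for Hmgcs1 (adjusted p = 2.32e-09).

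The steps of the pathway are listed with SN first. Sqle, squalene epoxidase, fell by 1.96 in SN with -0.30 in DRG, and Sc5d, a late desaturase, by 2.47 with -0.29. Insig1, which holds SREBP in the endoplasmic reticulum, fell by 1.93 in SN with -0.17 in DRG. Srebf2, which encodes the factor that drives these genes, changed by -0.21 and 0.08, and Stard4 by -0.76 and -0.01, neither called. Scd, a fatty acid desaturase outside the list, had the largest difference of the nerve-only down genes well above background on all 12 arrays, with 4.24, 4.02 and 2.55 at 0 d and -1.13, 0.41 and -0.50 at 14 d in SN and with 2.09 to 2.30 on all 6 DRG arrays. The count of 23 was 22 with slide as a fixed block and 15 on the 8 arrays of the slides with both tissues.

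Since the members moved together, the promoters of 3 list genes with large differences are printed, each the 250 bases before the start in GRCr8, 5' to 3', with matches to CCAAT in capitals, searched on both strands, so that some are read from the other strand. Hmgcs1 lies at chr2:53382054-53382303 (plus strand), Tm7sf2 at chr1:212789542-212789791 (minus strand) and Sc5d at chr8:51538278-51538527 (minus strand).
Hmgcs1: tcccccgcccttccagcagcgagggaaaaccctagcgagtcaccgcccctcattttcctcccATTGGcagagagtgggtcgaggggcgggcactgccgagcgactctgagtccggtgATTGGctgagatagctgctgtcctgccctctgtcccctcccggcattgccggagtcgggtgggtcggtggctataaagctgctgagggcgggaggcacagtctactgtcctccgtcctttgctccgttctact
Tm7sf2: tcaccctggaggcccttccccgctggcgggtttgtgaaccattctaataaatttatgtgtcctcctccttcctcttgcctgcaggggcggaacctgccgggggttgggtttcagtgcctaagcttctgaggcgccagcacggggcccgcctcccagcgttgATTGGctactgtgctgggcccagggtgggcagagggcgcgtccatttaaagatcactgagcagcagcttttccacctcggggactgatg
Sc5d: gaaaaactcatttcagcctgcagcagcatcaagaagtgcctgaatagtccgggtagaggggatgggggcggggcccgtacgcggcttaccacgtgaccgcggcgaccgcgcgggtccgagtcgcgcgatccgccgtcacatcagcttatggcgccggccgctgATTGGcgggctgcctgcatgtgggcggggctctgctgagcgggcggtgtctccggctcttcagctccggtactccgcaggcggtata
CCAAT, a letter run known as the core of the NF-Y site, stood in 14 of 17 list promoters matched (82.4%) and in 11385 of all 33469 promoters of this length (34.0%). Among promoters of all genes tested the share was 35.4%. The sterol regulatory letters TCACNCCAC stood in none of the 17 and in 0.974% of all promoters. No match says only that these letters are not in this window.

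Peripheral myelin genes fell mainly in SN. Of 21 members, 14 fell in SN and 2 in DRG, and 10 had a change lower in SN and none higher. Smpd3, a neutral sphingomyelinase, went in SN from 2.82, 2.71 and 1.99 to -0.37, 0.00 and 0.34, with 1.97 to 2.24 at 0 d and 1.62 to 1.88 at 14 d in DRG. Mal, a myelin proteolipid, fell by 2.13 in SN with -0.69 in DRG, and Gjb1, the connexin of Schwann cells, by 1.90 with -0.28. Pmp2, a lipid-binding myelin protein, fell in both tissues, by 2.41 in SN and 1.60 in DRG, a difference of -0.81 that did not pass 2-fold. With slide as a fixed block 9 members had a lower change in SN, and on the 8 arrays of shared slides 3 did.

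Schwann cell identity and repair genes moved the other way, with 10 of 25 members having a change higher in SN and 1 lower. The shares over all genes were 6.28% and 7.86%. Ngfr, the low-affinity neurotrophin receptor, rose in SN from 0.56, 0.85 and 0.36 to 3.92, 3.90 and 3.78. In DRG Ngfr read 5.01, 4.98 and 4.88 at 0 d and 4.51, 4.57 and 4.75 at 14 d, so that DRG stayed the higher tissue. The difference was 3.63 ± 0.15 (adjusted p = 1.31e-13). Pou3f1, a transcription factor of promyelinating Schwann cells, rose by 2.29 in SN with -0.41 in DRG, Nrg1, neuregulin 1, by 2.05 with -0.72, and Sox2 by 1.21 with 0.12. Fgf5 and Igfbp2 were not well above background in 0 d SN and rose there at least 5.08-fold and 4.20-fold. For a member that passed the filter through 14 d SN alone, the rise was set by that choice. Sox10 and Erbb3, markers of the lineage, changed by -0.07 and 0.20 in SN and were not called. On the 8 arrays of shared slides 4 members had a higher change in SN, and with the normexp correction 6 did. With only probes well above background on all 12 arrays, 5 did.

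Cell cycle genes rose in SN, while Mcm5 alone rose in DRG. Of 33 members, 27 rose in SN and 1 in DRG, and 29 had a change higher in SN and none lower. The median change was 1.29 in SN and -0.34 in DRG. Birc5, survivin of the chromosomal passenger complex, read -1.64, -2.99 and -2.58 in 0 d SN and 0.81, 0.60 and 0.65 at 14 d. Its 6 DRG arrays lay between -1.97 and -1.43 with the days overlapping, a difference of 3.28 ± 0.39 (adjusted p = 9.51e-07). Top2a, the topoisomerase of dividing cells, rose in SN from 0.22, 0.41 and -0.54 to 1.92, 1.71 and 1.84 and changed by -0.54 in DRG. Cdk1, the mitotic kinase, rose by 1.60 with -0.43 in DRG, Kif4a, a chromokinesin, by 1.92 with -0.55, and Cdc6, a replication licensing factor, by 1.69 with -0.57. Mcm5, E2f1, Pcna and Cdc20 had no called difference. The count of 29 was 30 with slide as a fixed block and 24 on the 8 arrays of shared slides.

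The promoters of the 3 cell cycle genes with the largest differences that have one in the RefSeq table are printed in the same way, 250 bases before the start in GRCr8. Birc5 lies at chr10:103571896-103572145 (plus strand), Kif4a at chrX:69761633-69761882 (plus strand) and Top2a at chr10:84473094-84473343 (minus strand). Capitals mark CCAAT and TTTGAA, the latter known as the cell cycle homology region, searched on both strands.
Birc5: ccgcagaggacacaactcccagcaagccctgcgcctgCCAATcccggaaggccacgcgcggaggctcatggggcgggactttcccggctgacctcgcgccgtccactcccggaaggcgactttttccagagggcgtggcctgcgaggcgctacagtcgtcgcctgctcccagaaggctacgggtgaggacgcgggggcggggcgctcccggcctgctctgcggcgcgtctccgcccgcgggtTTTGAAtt
Kif4a: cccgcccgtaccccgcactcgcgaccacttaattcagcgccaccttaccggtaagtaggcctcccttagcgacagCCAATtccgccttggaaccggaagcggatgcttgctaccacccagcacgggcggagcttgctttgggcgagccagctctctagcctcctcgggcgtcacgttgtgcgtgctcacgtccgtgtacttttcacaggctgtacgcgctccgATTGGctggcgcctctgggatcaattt
Top2a: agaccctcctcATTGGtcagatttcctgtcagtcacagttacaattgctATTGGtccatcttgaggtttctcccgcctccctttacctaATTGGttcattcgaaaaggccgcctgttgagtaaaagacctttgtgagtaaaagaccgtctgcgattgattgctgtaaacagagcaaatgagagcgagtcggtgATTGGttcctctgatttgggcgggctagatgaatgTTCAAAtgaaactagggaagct
Top2a holds 4 matches to CCAAT and 1 to TTTGAA, Birc5 holds 1 of each, and Kif4a holds 2 of the first and none of the second. Among 26 list promoters matched, CCAAT stood in 20 (76.9%) and the cell cycle homology region in 8 (30.8%), against 34.0% and 16.2% of all promoters. Among promoters of all genes tested the shares were 35.4% and 11.9%. The letters TTTGAA were as common in the T cell list, 31.2% of promoters, and in the neuropeptide list, 35.7%. They stood in 24.6% of promoters of same-direction up genes.

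**Figure D3:**
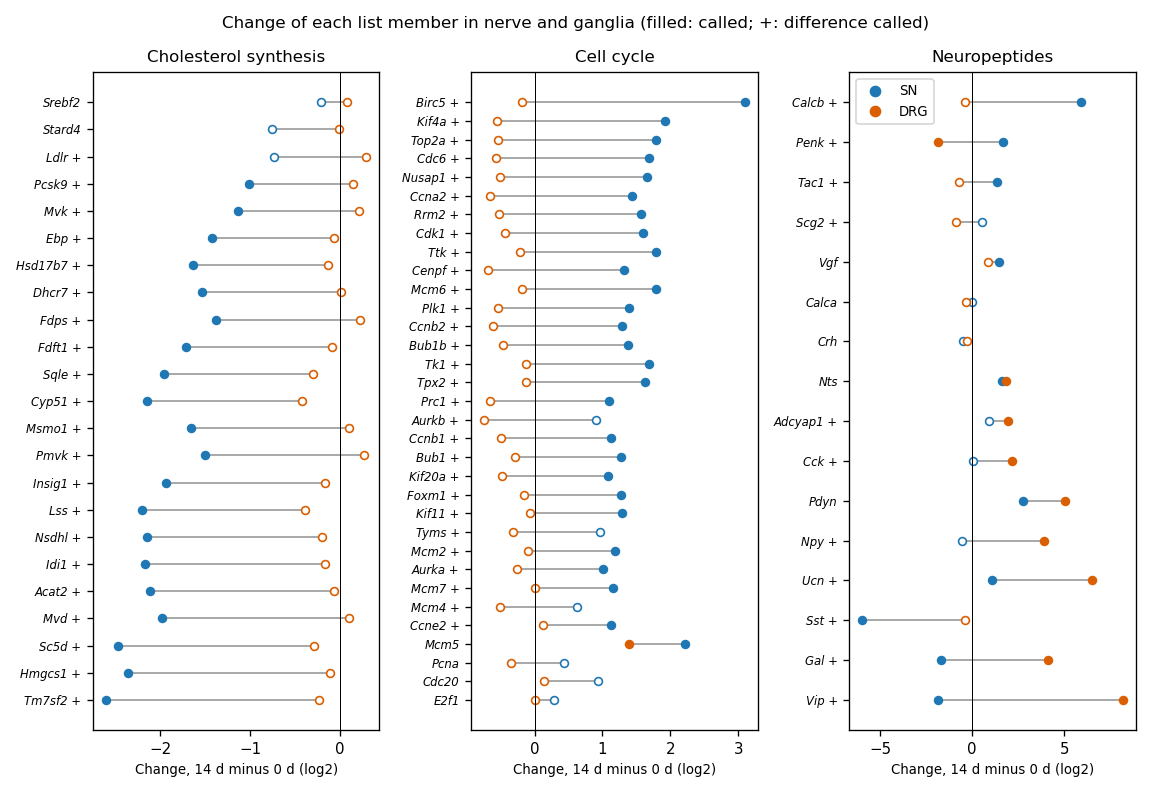
Change at 14 d (log2, x axis) of each reported member of the cholesterol synthesis, cell cycle and neuropeptide lists, SN in blue and DRG in orange, filled where the change was called and with a plus sign where the difference was called. Cholesterol genes lie between -2.60 and -0.21 in SN and between -0.42 and 0.29 in DRG, cell cycle genes between 0.29 and 3.09 in SN and between -0.74 and 1.39 in DRG, and neuropeptides spread to both sides in both tissues.

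T cell and cytotoxic lymphocyte markers rose in both tissues and more in SN. All 22 tested members rose in SN and 17 rose in DRG, with 15 changes higher in SN and 1 lower. The mean list signal moved from between -4.40 and -4.23 to between -1.40 and -0.57 in SN and from between -5.36 and -4.53 to between -3.20 and -2.81 in DRG. Cd3d, a chain of the T cell receptor complex, went in SN from -1.79, -1.44 and -1.51 to 1.77, 1.05 and 1.99 and read -0.73, 0.32 and 0.36 at 0 d and 0.61, 0.03 and 0.44 at 14 d in DRG. Ccl5, a T cell attracting chemokine, rose by 4.66 in SN and 1.60 in DRG, a difference of 3.06 ± 0.38 (adjusted p = 1.71e-06). Gzmb, granzyme B, was the exception with 3.17 in SN and 5.79 in DRG, but only 1 of its 3 probes was called for the difference. Of the 22 members 9 were well above background on all 12 arrays. When the test was limited to such probes, the 15 members with a higher change in SN became 7. Where a member passed the filter only through 14 d SN, as Ifng did, its rise there was set by that choice.

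MHC class II genes rose in both tissues, 8 of 9 members in each, and 4 of them rose more in DRG. Cd74, the invariant chain, read 4.73, 4.97 and 4.64 in SN at 0 d and 6.42, 6.02 and 6.29 at 14 d. In DRG it read 1.84, 1.98 and 2.09 at 0 d and 4.69, 5.15 and 5.27 at 14 d, below SN on both days. The difference was -1.61 ± 0.22 (adjusted p = 7.97e-06). RT1-Da, RT1-Db1 and RT1-Bb had differences of -1.54, -1.31 and -1.16, and the last was not called in 6 of 25 alternatives. A second RT1-Bb probe gave 0.47, which was not called.

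Of 24 macrophage markers, 17 rose in SN and 11 in DRG, and 3 had a called difference, against 14.1% of all genes. Aif1, a macrophage calcium-binding protein, rose by 1.26 in SN and 1.18 in DRG. Mmp12, macrophage elastase, was not well above background in 0 d SN and rose there at least 45.6-fold, to 0.33, -0.93 and -2.07. In DRG it was well above background on 1 array at 0 d and read -3.96, -3.80 and -3.22 at 14 d. Gpnmb, a glycoprotein of lipid-laden macrophages, rose by 2.78 in SN with 0.01 in DRG, and Spp1, osteopontin, fell by 2.08 in SN with -0.02 in DRG. Of 17 complement genes 10 rose in SN and 6 in DRG, against 14.7% and 13.0% of all genes. Of 24 interferon and immunoproteasome genes 5 rose in SN and 2 in DRG, which is near these shares. Neither list had a called difference in limma with 1 probe per gene. However, 1 of 2 probes of Rsad2, an interferon-induced enzyme, was called lower in SN, their differences lying between -1.31 and -1.20. At an unadjusted p under 0.05 there were 5 differences for complement and 2 for the interferon list.

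Neuronal genes measured in the nerve were uneven. Of 17 pan-neuronal members, 8 fell and 2 rose in SN and none was called in DRG, with 7 changes lower in SN and 3 higher. The 7 became 4 with slide as a fixed block and 3 with the normexp correction. Prph, peripherin, went in SN from 1.32, 1.42 and 1.69 to -0.66, -0.31 and -0.22, with -0.11 in DRG. Isl1, a sensory neuron transcription factor, changed by -2.39 in SN and -0.60 in DRG. Nefl and Nefm, the light and medium neurofilament chains, went the other way. Nefl read -4.22, -4.67 and -3.78 in 0 d SN and -2.43, -1.36 and -1.11 at 14 d, while DRG went from 6.65, 6.50 and 6.48 to 5.68, 5.61 and 5.68, a change of -0.89 that did not pass 2-fold. Nefm changed by 1.67 in SN and -0.52 in DRG. Nefh, the heavy chain, fell by 1.57 in SN with -0.72 in DRG.

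Of 41 sensory channel and receptor genes, 12 had a change higher in SN and 6 lower, against 6.28% and 7.86% of all genes. Gfra3, the artemin receptor, rose in SN from -2.11, -2 and -2.13 to 2.61, 2.03 and 2.25, with 0.69 in DRG, and both of its probes were called. Of the 4 probes of Ret 2 were called, and the one with the highest signal is given. Ret, the signalling partner of the GFRA receptors, fell by 2.66 in SN from 2.20, 2.31 and 2.42 to -0.59, -0.09 and -0.38, with -0.05 in DRG. Scn10a, a sodium channel of nociceptors, rose by 1.69 in SN with -0.50 in DRG, and Kcna1, a potassium channel at the juxtaparanode, fell by 1.80 with -0.41. The 2 probes of Kcna1 gave differences of -1.39 and -0.52, and only 1 was called. Scn3a, a sodium channel re-expressed in injured neurons, rose by 1.30 in DRG with -0.94 in SN. Asic1 had 4 probes, 1 called in each direction, and is left without a direction. With slide as a fixed block 16 members had a higher change in SN, and among members well above background on all 12 arrays 6 did.

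Matrix genes held 6 of 37 members with a higher change in SN and 2 with a lower one, against 6.28% and 7.86% of all genes. The lower count is thus near the share over all genes. Tnc, tenascin C, rose in SN from -0.56, -0.88 and -1.35 to 2.95, 1.86 and 2.37, with -0.51 in DRG. Thbs2, thrombospondin 2, rose by 1.81 and Col18a1, the collagen that yields endostatin, by 1.62, with 0.02 and 0.06 in DRG. Fibrillar collagens such as Col1a1 and Col3a1 changed by -0.54 and -0.60 in SN and by -0.33 and -0.15 in DRG, none called.

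**Figure D4:**
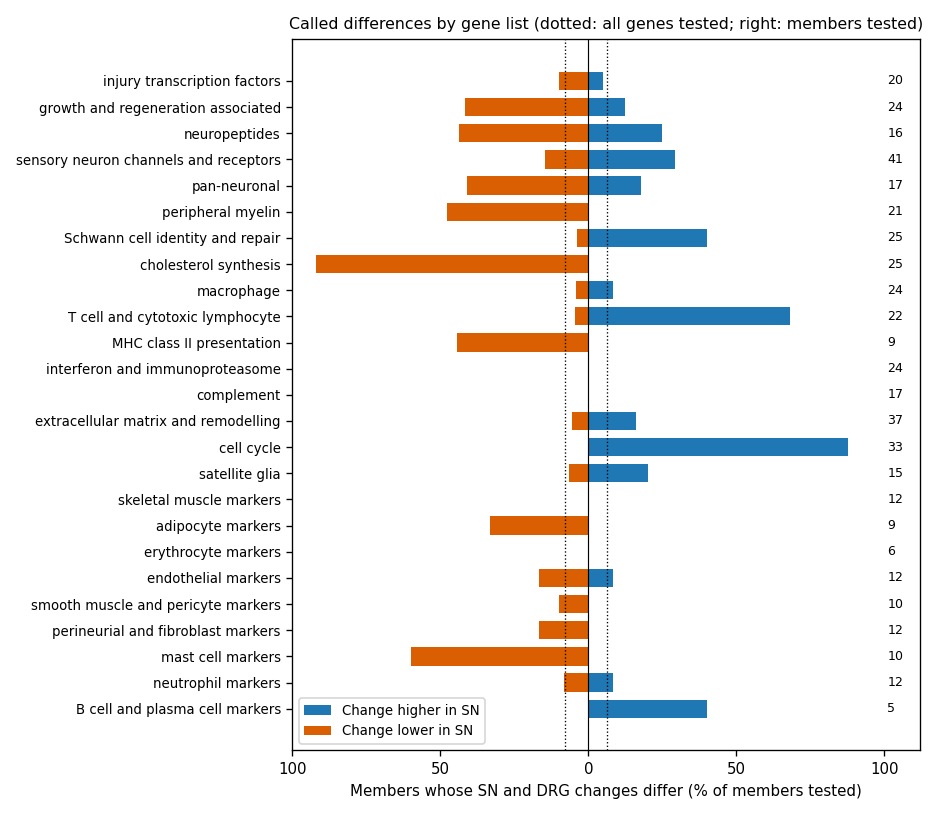
Share of the tested members of each gene list whose SN and DRG changes differ (x axis, percent), with a change higher in SN to the right in blue and lower in SN to the left in orange, and the number of members tested at the right. Dotted lines mark 6.28% and 7.86%, the shares over all genes, and cholesterol synthesis (23 of 25 lower) and cell cycle (29 of 33 higher) reach farthest.

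Other nerve-only genes by the fixed rule were Epcam, an epithelial adhesion molecule, with 4.59 in SN and -0.15 in DRG, Sh2d1a, a signalling adaptor of T and NK cells, with 4.78 and 0.04, Crabp1, which binds retinoic acid, with 4.28 and -0.36, and Plcxd3 with 3.68 and -0.53. Down in SN were B3galt2, a galactosyltransferase, with -3.59 and 0.05, Adcy8, an adenylate cyclase, with -3.04 and 0.41, and the axon guidance receptor Robo3 with -3.84 and -0.63. Myh7, a slow muscle myosin, fell by 3.74 in SN, from 1.29, 1.14 and 1.49 to -2.50, -2.09 and -2.72. On the same 0d_SN arrays the mean signal of the muscle markers was 7.04, 2.30 and 2.87. The DRG arrays of Myh7 read -0.83, 2.22 and 2.07 at 0 d and 2.41, 0.04 and -0.23 at 14 d, a wider spread than in SN. Its difference was -3.33 (adjusted p = 0.0157), and it was not called without 0d_DRG replicate 1 (-2.34), without 14d_DRG replicate 1 (-2.49), on the 12 arrays alone or on the 8 arrays of shared slides. The part of muscle tissue in this value was not tested.

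Some genes were seen in 1 tissue only. Vsig4, a complement receptor of macrophages, Trh, thyrotropin-releasing hormone, and Moxd1, a monooxygenase-like protein, were not well above background on any DRG array, nor in 0 d SN, and rose in 14 d SN at least 6.59-, 6.2- and 6.58-fold. Abca12, a lipid transporter, and Aadacl4fm1 were not well above background on any SN array and rose in DRG at least 6.33- and 2.57-fold. Each of these genes passed the filter through its 14 d group alone and was picked for a large change. The direction of the change was thus set by that choice and is no separate result.

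Of the 1067 same-direction up genes, 44 rose more in SN and 42 more in DRG, and the difference was not called for 981, which does not show that their changes were equal. Cxcl13, a B cell attracting chemokine, rose in SN from 0.27, 0.36 and 1.59 to 4.15, 3.15 and 3.99 and in DRG from -2.33, -0.02 and 1.09 to 3.41, 2.82 and 3.42. Its difference of -0.61 had a 95% interval from -2.19 to 0.96, which reaches past 2-fold toward DRG. Stat4, which signals for interleukin 12, rose by 3.10 in SN and 2.80 in DRG, Cd8b by 3.63 and 2.55 with a called difference of 1.08 that 5 of 25 alternatives did not call, and Fcrl2 by 2.44 and 2.53. Has1, a hyaluronan synthase, rose by 2.23 in SN and by 4.87 in DRG, a difference of -2.64 ± 0.40 (adjusted p = 2.24e-05).

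Among the 28 genes that fell in both tissues were Dbp and Nr1d1, members of the circadian clock output, with -1.96 and -1.60 in SN and -1.83 and -1.46 in DRG. Dbp read 3.57, 2.31 and 3.10 in 0 d SN and 1.04, 1.02 and 1.02 at 14 d, and 2.20, 0.95 and 1.38 in 0 d DRG and -0.28, -0.32 and -0.35 at 14 d. The arrays of 14 d were tight and those of 0 d spread in both tissues, and the hour of sampling is not given in the sources used here. Treh, trehalase, fell by 2.95 and 1.34, and Cat, catalase, by 1.34 and 1.26.

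Markers of other cell types moved as follows beside these results. Mast cell markers, 6 of 10 with a change lower in SN, went from a mean signal of -0.37 to -0.09 at 0 d to -1.48 to -0.98 at 14 d in SN, and from between -3.48 and -3.16 to between -3.21 and -2.5 in DRG. Tpsb2, a tryptase, fell by 2.22 in SN with 0.81 in DRG. On the 8 arrays of shared slides none of the 10 had a called difference, nor did any adipocyte marker. Of 9 adipocyte markers 3 had a change lower in SN, among them Cidec, a lipid droplet protein, with -1.35 in SN and 1.70 in DRG. Of 12 endothelial markers 2 had a lower change in SN, Cldn5, the claudin of the blood-nerve barrier, with -1.44 and 0.28, and Slco1a4, a transporter, with -1.68 and 0.13, and 1 a higher one, Tie1 with 1.09, which 7 of 25 alternatives did not call. None of 12 skeletal muscle and 6 erythrocyte markers had a called difference, with 0 and 1 at an unadjusted p under 0.05. Of 15 satellite glia markers 3 had a change higher in SN and 1 lower, of 12 perineurial and fibroblast markers 2 a lower one, of 10 smooth muscle and pericyte markers 1 a lower one, of 12 neutrophil markers 1 each way and of 5 B cell and plasma cell markers 2 a higher one. Over all genes 6.28% had a change higher in SN and 7.86% a lower one, so a count of 1 in 10 to 15 members is near these shares. The part of these cell types in the other results was not tested.

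The days between 0 and 14 showed when the tissues parted for the genes above, as levels with no test. Vip in DRG stood at 1.09 ± 0.19 (SD, n = 3) at 1 d, 4.67 ± 0.40 at 4 d and 4.77 ± 0.17 at 7 d, and in SN at -2.77 ± 0.45, -2.86 ± 0.15 and -3.08 ± 0.32. The SN level was thus near its 14 d value from 1 d on and the DRG level from 4 d on. Calcb in SN stood at -2.66 ± 0.09, 1.62 ± 0.15 and 0.18 ± 0.10 on these days, highest at 4 d. Hmgcs1 in SN stood at 6.32 ± 0.14, 5.03 ± 0.16 and 4.62 ± 0.05 and in DRG at 6.15 ± 0.13, 6.07 ± 0.17 and 5.90 ± 0.05. Birc5 in SN stood at -0.51 ± 0.20, 1.39 ± 0.30 and 0.92 ± 0.16, above its 14 d mean of 0.69 at 4 d and 7 d. Gfra3 in SN was still at -1.30 ± 0.07 at 4 d and reached 1.61 ± 0.10 at 7 d, later than Ngfr, which stood at 2.5 ± 0.11 at 1 d and 4.13 ± 0.05 at 4 d.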

How the data were processed

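RNA was measured on one-colour arrays of SN and DRG tissue, 3 per group. The intensity values were made by the authors' scanner software, Agilent Feature Extraction 10.5.1.1, which per the file headers subtracted the background and detrended each array without normalization between arrays. The authors also deposited log2 values (GeneSpring per the study's methods) whose columns share 1 distribution, as after quantile normalization, and these were used as an alternative. Raw mean and local background intensities, deposited beside them, served the normexp alternative (offset 50). A probe counted as well above background where the scanner flag was set on at least 50% of its spots.

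What follows was computed here. Outlier spots were left out, log2 intensities were averaged per probe, and the 75th percentile of each array was subtracted. Of 41012 non-control probes, 34619 were tested because every array of at least 1 of the 4 groups had them well above background, and 14144 of these carry no gene name. Per array, 26941 to 32602 probes were well above background at 0 d and 33079 to 35573 at 14 d, which limits dim genes. Every 0 d array thus lay below every 14 d array, in both tissues. The part of this in the many calls of higher signal at 14 d was not tested. No spot was saturated. Arrays carry no read depth, and 3 arrays per group limit the precision. A linear model over all 30 arrays (10 groups, 20 residual degrees of freedom) was fitted with limma 3.58.1 in R 4.3.3, with moderated statistics and Benjamini-Hochberg adjustment over all probes, and tested on simulated data. Adjusted p-values are from this fit. For a gene, the tested probe with the highest mean signal over the 12 arrays was used. Gene names are those of the array (probe positions of build rn4), checked by RefSeq accession for 16444 probes, of which 3824 took a new name. The study's methods state t-tests for SN only. That test, other scalings, filters, blocks and left-out arrays are given at the end.

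Named genes are, per class, the 5 with the largest difference (same direction: the 5 with the largest smaller change) among genes above background on all 12 arrays and without overlap of days where called, the 3 largest changes in a tissue with the other below background, and up to 4 members per gene list with the largest difference. Other list members were named after their values were seen. The comparison, members and lists were chosen with earlier results of these data known. Labels name the mirVana kit for extraction and the paper names Trizol, and the paper reports the SN arrays only. Comparisons share the 0 d arrays of their tissue. Some genes are not reported here, though they count in the totals.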

Additional observations from a re-analysis of the deposited data

Results flagged for a closer look

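The test of the difference between SN and DRG changes called 4562 probes, and by gene it set apart 1381 nerve-only, 303 ganglion-only and 43 opposite-direction genes. These results stand here because the same contrast, 14 d against 0 d, gave different changes in 2 tissues. Of the named genes well above background in both tissues, 11 moved in opposite directions. A change lower in SN was measured for Vip (difference -10.02 on the log2 scale), Krt19 (-5.83), Gal (-5.81), Hrk (-4.80), Padi3 (-3.77), Olig1 (-3.53) and Cidec (-3.06). A change higher in SN was measured for Penk (3.54), Pappa (2.94), Tmem255a (2.48) and Pla2g7 (2.35). Olig1, a glial transcription factor, was well above background on 1 of 3 arrays in 0 d DRG.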

How the results depend on the processing

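The alternatives were run gene by gene for the 103 genes picked by the fixed rule that had a called difference. None of these differences changed sign, and other genes named in the text were not run. Splits of counts did change. SN had 1052 higher and 1208 lower probes with normexp and quantile normalization against 4756 and 2006. DRG had 4785 and 1737 without the filter for signal above background against 4627 and 189. The difference had 1931 and 1919 with slide as a fixed block against 1889 and 2673. After quantile normalization opposite-direction genes were 39 up in SN and 28 up in DRG against 16 and 27. Nerve-only genes were then 538 up and 603 down against 696 and 685. With 6762 probes called in SN, 4816 in DRG and 4562 for the difference, and 1381 nerve-only, 303 ganglion-only, 1095 same-direction and 43 opposite-direction genes as reported, quantile normalization gave 552 same-direction and 67 opposite-direction genes, and the authors' matrix gave 550 same-direction genes. The normexp correction gave 2260, 658 and 1965 probes and 700, 109, 109 and 13 genes. Probes well above background on all 12 arrays gave 3546, 1415 and 2779 probes and 102 ganglion-only, 341 same-direction and 19 opposite-direction genes, from fewer probes tested. An adjusted p alone called 11267 differences, the methods' t-test with Benjamini-Hochberg adjustment called 3119 probes in DRG and 4871 in SN (4321 and 6019 before adjustment), and an interval within 2-fold left 160 ganglion-only genes. Added after seeing the data, slide as a fixed block gave 178 ganglion-only genes, and the 8 arrays of slides with both tissues gave 2286 differences, 860 nerve-only and 133 ganglion-only genes, from fewer samples. Where a cause is not named, the cause was not tested. Leaving out 1 array at a time gave 4187 to 5095 differences, 5854 to 7243 probes in SN, 4278 to 4933 in DRG and 1307 to 1465 nerve-only, 221 to 555 ganglion-only, 793 to 1244 same-direction and 38 to 58 opposite-direction genes, and the 555 came without 14d_SN replicate 3. With SN and DRG of 1 day and number paired in a replicate block 4552 probes differed, and with the number as a block over all groups 4517. The numbers were not taken as pairing the samples. Same-numbered arrays of both tissues deviated together at r from -0.121 to 0.238, and unlike-numbered arrays of the same day at r from -0.325 to 0.218. Of the 103 genes run gene by gene, 74 were called under every one of 25 alternatives that could give a value. Signal over background limits dim genes, and 3 arrays per group limit the precision.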
